A study of Mus musculus with 3 samples.

Results

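Hnf4a, Hnf4g, Foxa1, Foxa2, Foxa3, Elf3, Klf5 and Sox9, which encode transcription factors of the gut endoderm, were followed in 3 segments of the wild-type mouse gut at E13.5. They are the 8 rows whose gene symbol is one of these names, out of 33762 features in the table, and all 8 passed the count minimum in every library. The caecum, the colon and the presumptive ileum, the last of 3 equal portions of the small intestine, came from embryos of strain Bl6/C57 and gave 1 sample each. Polyadenylated RNA was sequenced as paired reads of 100 bp. The other segments named in the protocol were not analysed here.

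HNF4 and FOXA proteins are among the factors that set up and maintain epithelial identity in endodermal organs. FOXA proteins are forkhead factors that can open chromatin, and HNF4 proteins are nuclear receptors that, in the intestine, bind near genes of enterocyte absorption and of the brush border. ELF3 is an ETS factor of epithelia, KLF5 a zinc finger factor of proliferating crypt cells, and SOX9 a factor of epithelial progenitors that is also made in cartilage and enteric glia.

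The libraries held 64439701 counts for the caecum, 50772855 for the colon and 50079617 for the ileum. Each sample has a pair of columns headed as replicates, which differed by 0.454 to 0.461 times the counting variance and were averaged as 1 library. With 1 sample per segment no test across samples was possible, so no p-value is given. Brackets give exact 95% intervals that cover counting error only. RPKM, as the authors computed it, is the read number divided by gene length and by library size. A fold is a ratio of library-scaled counts, and a gene was counted as apart at 2-fold or more. In bulk tissue, fewer cells of a type and less RNA per cell cannot be told apart. The epithelium list, of genes such as Epcam and Cdh1, summed to 359 RPKM in the caecum, 412 in the colon and 346 in the ileum. Cdx2, the factor of intestinal identity, had 2736 counts in the caecum, 1133 in the colon and 1978 in the ileum. At 18.8, 9.87 and 17.5 RPKM in the same order, its fold for caecum over ileum was 1.06 (1.0 to 1.13). Barx1, a gene of stomach mesenchyme, had 7, 1 and 4 counts in the caecum, colon and ileum.

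The 8 genes did not share 1 order of segments. Hnf4g and Elf3 were highest in the ileum, Foxa2 and Klf5 in the colon and Foxa3 in the caecum, while Hnf4a was lowest in the caecum and Foxa1 lowest in the colon. Sox9 varied least, by 1.24-fold between its highest and lowest library, and Foxa2 most, by 5.89-fold. Between caecum and ileum 3 of the 8 genes were 2-fold or more apart, against 7.11% of the 17827 genes compared. Of these 1, Foxa2, was higher in the caecum, against 4.59% of all genes, and 2, Hnf4g and Elf3, were lower, against 2.52%. Between caecum and colon 1 of 8 was apart, against 7.84% of 17900 genes. It was Foxa2, lower in the caecum, as were 2.74% of all genes, and none of the 8 was higher, against 5.11%. Between colon and ileum 2 of 8 were apart, against 8.33% of 17579 genes, with Foxa2 higher in the colon, against 4.04%, and Hnf4g lower, against 4.29%. Counts so small, from 8 chosen genes, were not set against these shares by a test. The median log2 fold of the 8 genes was -0.11 for caecum over ileum, -0.14 for caecum over colon and -0.49 for colon over ileum, while that of all genes compared lay within 0.01 of no difference in each pair.

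**Figure D1:**
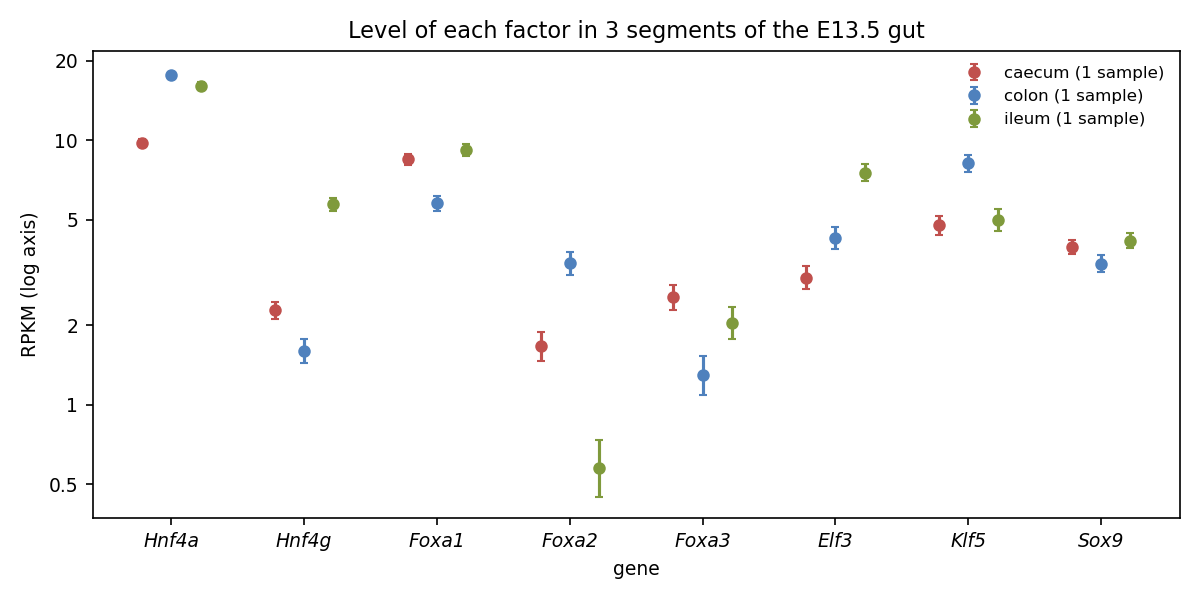
RPKM on a log axis for the 8 genes in the caecum, colon and ileum, with 1 sample per segment and bars for the exact 95% Poisson interval of the count. Hnf4a was the highest of the 8 in every segment, at 9.81 RPKM in the caecum, 17.6 in the colon and 16.1 in the ileum, and Foxa2 in the ileum was the lowest point, at 0.577 RPKM.

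Hnf4a, the more abundant of the pair of HNF4 genes, was lower in the caecum than in either neighbour. It had 9.81 RPKM in the caecum (9.48 to 10.2), 17.6 in the colon (17.1 to 18.2) and 16.1 in the ileum (15.6 to 16.6). These levels rested on 3174 counts in the caecum, 4498 in the colon and 4042 in the ileum. The caecum value stood apart below the other 2, whose intervals did not touch but lay close. The fold for caecum over colon was 0.558 (0.533 to 0.584) and for caecum over ileum 0.604 (0.576 to 0.633), so both lay inside the 2-fold limit. For colon over ileum it was 1.08 (1.04 to 1.13), a direction that depended on the scaling, since it became 0.880 when libraries were scaled to the epithelium list. The gene (ENSMUSG00000017950) lies on chromosome 2, 163332544 to 163398646, on the plus strand of mm9.

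Hnf4g, the paralogue of Hnf4a, was lowest in the colon and highest in the ileum. It had 2.27 RPKM in the caecum (2.10 to 2.46), 1.60 in the colon (1.43 to 1.77) and 5.73 in the ileum (5.41 to 6.05). The corresponding counts were 638 in the caecum, 353 in the colon and 1248 in the ileum, which left the ileum well above the other libraries. It was 2.54-fold (2.31 to 2.80) lower in the caecum and 3.64-fold (3.23 to 4.11) lower in colon than in ileum. Between the lower libraries the caecum was 1.43-fold (1.25 to 1.63) higher than the colon. The gene (ENSMUSG00000017688) lies on chromosome 3, 3508030 to 3659775, on the plus strand of mm9.

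The balance between the paralogues therefore differed by segment, in a measure that needs no scaling between libraries. The ratio of Hnf4g to Hnf4a in RPKM was 0.232 in the caecum, 0.0905 in the colon and 0.356 in the ileum. The ratio was 3.93-fold (3.47 to 4.47) lower in colon than in ileum and 2.56-fold (2.23 to 2.95) higher in caecum than in colon. Summed, the HNF4 pair had 12.1 RPKM in the caecum, 19.2 in the colon and 21.8 in the ileum. Hnf4g made up 18.8% of the sum in the caecum, 8.30% in the colon and 26.3% in the ileum.

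Hnf4a has a pair of promoters, of which textbook accounts place P2 upstream of P1, and the table gives 1 value for the gene as a whole. Sequences of 300 bases around a start site, 250 before and 50 after, were taken from RefSeq on GRCm38.p6, where 5 of the 8 genes had at least 1 window and Hnf4g, Klf5 and Sox9 had none. They are shown because the level of Hnf4a sums over both start sites. Capitals mark matches on either strand to 4 short motifs. The letters searched were TGTTTAC for the FOX motif. For the HNF4 motif they were CAAAGT, and the GATA motif was searched as AGATAA. The CDX motif was searched as TTTATG. The upstream window lies at chr2:163506607-163506906 and the downstream one at chr2:163546905-163547204, both on the plus strand.
Hnf4a upstream: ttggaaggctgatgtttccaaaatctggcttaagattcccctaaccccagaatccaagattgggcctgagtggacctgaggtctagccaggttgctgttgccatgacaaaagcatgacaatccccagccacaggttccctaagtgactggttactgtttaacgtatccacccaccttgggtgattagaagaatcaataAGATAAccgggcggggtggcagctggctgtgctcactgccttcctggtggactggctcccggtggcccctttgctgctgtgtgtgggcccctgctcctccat
Hnf4a downstream: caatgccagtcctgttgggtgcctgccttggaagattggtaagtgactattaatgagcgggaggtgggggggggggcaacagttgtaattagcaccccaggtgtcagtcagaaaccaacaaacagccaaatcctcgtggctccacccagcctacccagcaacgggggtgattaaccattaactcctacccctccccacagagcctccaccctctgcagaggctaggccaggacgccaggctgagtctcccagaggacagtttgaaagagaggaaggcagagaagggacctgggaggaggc
The upstream window held 1 GATA motif, 52 bases before the start site, as did 11.2% of all 32851 windows with the motif at any place, and the downstream window held none of the 4 motifs.

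**Figure D2:**
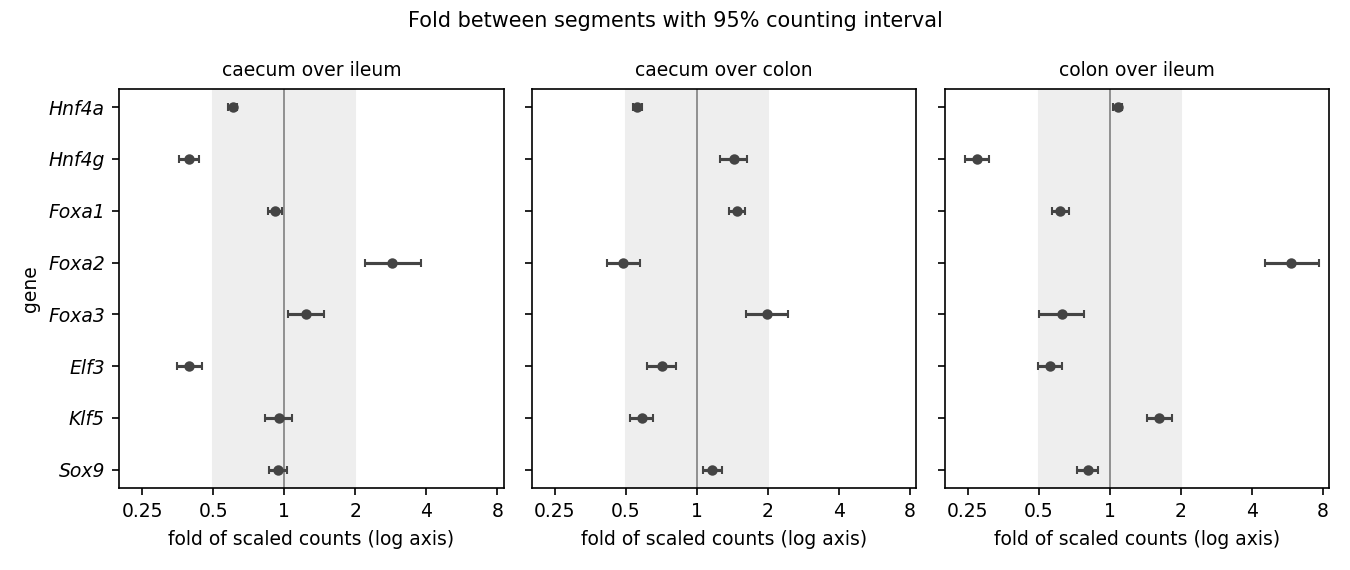
Fold of scaled counts on a log axis for the 8 genes in each pair of segments, with exact 95% counting intervals, 1 sample per segment. Grey spans the range within 2-fold, and Foxa2 for colon over ileum, at 5.89, lies farthest from no difference.

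Foxa1, the most abundant of the FOXA genes in every segment, was lowest in the colon. It had 8.49 RPKM in the caecum (8.10 to 8.90), 5.77 in the colon (5.41 to 6.16) and 9.18 in the ileum (8.71 to 9.66). Its counts were 1745 in the caecum, 934 in the colon and 1466 in the ileum. Caecum and ileum lay near each other, and the colon lay apart from both. Foxa1 was 1.48-fold (1.36 to 1.60) higher in caecum than in colon and 1.62-fold (1.49 to 1.76) lower in colon than in ileum. For caecum over ileum the fold was 0.915 (0.853 to 0.982).

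Foxa2 ran the other way and had the widest range of the 8 genes. It had 1.66 RPKM in the caecum (1.46 to 1.88), 3.43 in the colon (3.10 to 3.78) and 0.577 in the ileum (0.448 to 0.732). The counts were 254 in the caecum, 412 in the colon and 68 in the ileum, with no overlap of intervals. Foxa2 exceeded its ileum level 2.87-fold (2.19 to 3.81) in the caecum and 5.89-fold (4.55 to 7.73) in the colon. It was 2.05-fold (1.75 to 2.41) lower in caecum than in colon, which became 1.92-fold with libraries scaled to the epithelium list, so this difference sat at the 2-fold limit.

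Foxa3 was highest in the caecum. It had 2.55 RPKM in the caecum (2.28 to 2.84), 1.29 in the colon (1.08 to 1.53) and 2.04 in the ileum (1.77 to 2.33). The counts were 335 in the caecum, 134 in the colon and 208 in the ileum, and the intervals of caecum and ileum overlapped. For caecum over ileum the fold was 1.24 (1.04 to 1.48). For caecum over colon it was 1.98 (1.61 to 2.43), just inside the limit, and 2.11 with libraries scaled to the epithelium list. Foxa3 was 1.60-fold (1.28 to 2.0) lower in colon than in ileum, close to the value for Foxa1 in that pair.

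Balance within the FOXA family shifted most between Foxa2 and its paralogues. The ratio of Foxa2 to Foxa1 in RPKM was 0.196 in the caecum, 0.594 in the colon and 0.0629 in the ileum, and it was 9.51-fold (7.23 to 12.6) higher in colon than in ileum. The ratio of Foxa3 to Foxa1 was 0.300 in the caecum, 0.224 in the colon and 0.222 in the ileum, so colon and ileum differed by 1.01-fold (0.795 to 1.28). The order of Foxa2 and Foxa3 turned round between segments, with Foxa3 over Foxa2 at 1.53 in the caecum, 0.378 in the colon and 3.53 in the ileum. The sum of the FOXA genes varied little, at 12.7 RPKM in the caecum, 10.5 in the colon and 11.8 in the ileum. These ratios are free of scaling between libraries and assume that reads were assigned to the right paralogue.

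**Figure D3:**
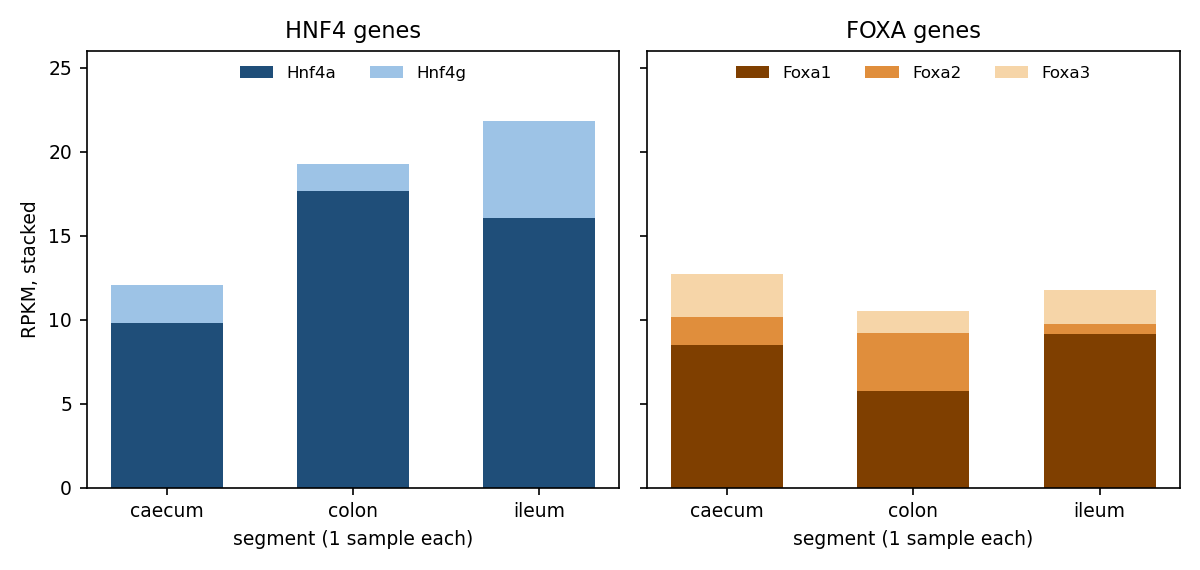
Stacked RPKM of the HNF4 genes (left) and the FOXA genes (right) in the caecum, colon and ileum, with 1 sample per segment and no error bars. The FOXA stacks are of like height, at 12.7, 10.5 and 11.8 RPKM in the caecum, colon and ileum, while the Foxa2 part runs at 1.66, 3.43 and 0.577 RPKM in the same segments.

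In mm9, Foxa1 (ENSMUSG00000035451) lies on chromosome 12, 58641618 to 58647108, Foxa2 (ENSMUSG00000037025) on chromosome 2, 147868613 to 147872705, and Foxa3 (ENSMUSG00000040891) on chromosome 7, 19598631 to 19608887, all on the minus strand. Promoter windows of Foxa1 and Foxa2 are shown because these paralogues moved in opposite directions between colon and ileum. The Foxa1 window is chr12:57546062-57546361 and the Foxa2 window chr2:148045415-148045714 of GRCm38.p6, both written on the minus strand, with capitals as above.
Foxa1: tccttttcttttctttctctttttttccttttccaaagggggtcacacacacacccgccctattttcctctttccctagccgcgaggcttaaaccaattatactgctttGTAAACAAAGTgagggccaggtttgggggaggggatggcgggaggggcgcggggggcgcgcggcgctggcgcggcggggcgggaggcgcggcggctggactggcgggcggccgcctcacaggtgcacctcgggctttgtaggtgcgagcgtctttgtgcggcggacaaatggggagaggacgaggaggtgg
Foxa2: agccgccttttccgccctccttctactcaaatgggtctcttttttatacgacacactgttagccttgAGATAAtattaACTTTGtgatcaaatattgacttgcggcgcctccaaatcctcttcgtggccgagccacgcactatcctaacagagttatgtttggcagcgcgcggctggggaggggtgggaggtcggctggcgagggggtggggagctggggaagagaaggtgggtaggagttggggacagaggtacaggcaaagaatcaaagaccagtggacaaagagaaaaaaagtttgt
Foxa1 held a FOX motif, 141 bases before its start site, that overlaps an HNF4 motif, and 3.65% of all windows held that FOX motif. The Foxa2 window held a GATA motif and an HNF4 motif, and 14.4% of all windows held the HNF4 motif. The other 2 Foxa2 windows and those of Foxa3 and Elf3 held none of the 4 motifs, and no window of the 5 genes held the CDX motif, which 11.9% of all windows did. A match is a run of letters and no evidence of binding.

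Elf3 was highest in the ileum. It had 3.02 RPKM in the caecum (2.73 to 3.34), 4.28 in the colon (3.89 to 4.71) and 7.56 in the ileum (7.03 to 8.12). Its counts were 390 in the caecum, 435 in the colon and 757 in the ileum, and no intervals overlapped. It was 2.52-fold (2.23 to 2.86) lower in caecum than in ileum and 1.79-fold (1.59 to 2.02) lower in the colon, the second of which became 2.20-fold with scaling to the epithelium list. For caecum over colon the fold was 0.709 (0.617 to 0.815). The ratio of Hnf4g to Elf3 was nearly the same in caecum and ileum, at 0.992-fold (0.847 to 1.16) for caecum over ileum, while in the colon Hnf4g was lower against Elf3, by 2.03-fold (1.71 to 2.41) from the ileum.

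The span of Elf3 (ENSMUSG00000003051, chromosome 1, 137150151 to 137155049, minus strand, mm9) lies inside Gm16606, a feature on the opposite strand. Gm16606 had 206 counts in the caecum, 186 in the colon and 215 in the ileum, and without a stated use of strand their reads could not be told apart. With both features summed, the caecum was 2.12-fold (1.91 to 2.35) lower than the ileum.

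Klf5 was highest in the colon. It had 4.77 RPKM in the caecum (4.37 to 5.19), 8.21 in the colon (7.62 to 8.83) and 4.99 in the ileum (4.53 to 5.48). The counts were 529 in the caecum, 718 in the colon and 430 in the ileum. Caecum and ileum overlapped, with a fold of 0.946 (0.831 to 1.08), and the colon lay above both. Klf5 was 1.62-fold (1.44 to 1.83) higher in colon than in ileum and 1.72-fold (1.53 to 1.92) lower in caecum than in colon. The ratio of Elf3 to Klf5 was 0.634 in the caecum, 0.522 in the colon and 1.51 in the ileum, so Elf3 exceeded Klf5 per length only in the ileum library. Klf5 (ENSMUSG00000005148) lies on chromosome 14, 99697910 to 99712624, on the plus strand of mm9.

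Sox9 was nearly level along the gut. It had 3.96 RPKM in the caecum (3.72 to 4.21), 3.41 in the colon (3.17 to 3.67) and 4.17 in the ileum (3.90 to 4.46). The counts were 1055 in the caecum, 717 in the colon and 864 in the ileum, and the caecum interval overlapped that of the ileum. The fold was 0.939 (0.857 to 1.03) for caecum over ileum, 1.16 (1.06 to 1.28) for caecum over colon and 0.807 (0.729 to 0.891) for colon over ileum. The last became 0.656 with libraries scaled to the epithelium list. Sox9 over Hnf4a was highest in the caecum, where Hnf4a was lowest, at 0.403 in the caecum, 0.194 in the colon and 0.260 in the ileum. Sox9 (ENSMUSG00000000567) lies on chromosome 11, 112643538 to 112649074, on the plus strand of mm9.

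Sox9 is not restricted to epithelium, and lists of other cell types that make it moved between these libraries. The list of enteric neurons and glia summed to 218 RPKM in the caecum, 125 in the colon and 223 in the ileum, and 6 of its 10 genes were 2-fold or more lower in colon than in ileum, 4 higher in caecum than in colon and 0 apart between caecum and ileum. The cartilage list summed to 30.9 RPKM in the caecum, 30.9 in the colon and 18.6 in the ileum. Of its 9 genes, 7 in the caecum, 7 in the colon and 6 in the ileum had 20 counts or more. Matn1 was at 0 counts in all 3, and Acan at 6 counts in the caecum, 26 in the colon and 0 in the ileum. Of the cartilage genes 2 were higher in caecum than in ileum among 7 compared. In caecum against colon 2 were higher and 2 lower among 8, and 2 were higher in colon than in ileum among 7. Their part in the level of Sox9 was not tested.

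Relative to the summed epithelium list, 7 of the 8 genes kept their order of segments, and Hnf4a was then lower in colon than in ileum. Hnf4g was 0.633% of that sum in the caecum, 0.388% in the colon and 1.65% in the ileum. Foxa2 was 0.463% in the caecum, 0.832% in the colon and 0.167% in the ileum, and Hnf4a was 2.74% in the caecum, 4.28% in the colon and 4.65% in the ileum. Of the 20 epithelial genes, 1 was 2-fold or more apart between colon and ileum, Krt19, a keratin of simple epithelia, with 4603 counts in the colon and 2068 in the ileum, a fold of 2.16 that became 1.76 with libraries scaled to this list. Between caecum and colon 1 was apart, Elf5, an ETS factor, with 1 count in the caecum and 24 in the colon, and 0 of 19 were apart between caecum and ileum. The median fold of the list was 1.02 for caecum over ileum, 0.937 for caecum over colon and 1.23 for colon over ileum.

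Markers of organs in which FOXA or HNF4 genes are also active were sparse for the pancreas and present in part for the others. Of 10 pancreas genes, 2 in the caecum, 3 in the colon and 2 in the ileum had 20 counts or more. For the liver list these were 5, 5 and 4 of 10 genes in the same order. They were 7 of 12 urothelium genes in each library, and 4, 3 and 3 of 6 notochord and floor plate genes. Of the pancreas list, Ptf1a, Neurog3 and Ins2 had 0 counts in every library and Pdx1 had 1 count in the caecum and 0 in the colon and ileum. Of 3 pancreas genes compared, 2 were higher in caecum than in ileum, 2 lower in caecum than in colon and 2 higher in colon than in ileum. The whole pancreas list summed to 0.770 RPKM in the caecum, 1.12 in the colon and 0.513 in the ileum. The liver list summed to 65.8 RPKM in the caecum, 43.6 in the colon and 25.5 in the ileum, most of it Afp, Trf and Serpina1b, while Ahsg was at 0 counts in all libraries and Alb had 8 counts in the caecum, 36 in the colon and 6 in the ileum. Liver genes were higher in caecum than in ileum for 3 of 5 compared and in colon than in ileum for 2 of 5, and 2 were higher and 1 lower in caecum than in colon among 6. The list of urothelium and urogenital sinus summed to 54.3 RPKM in the caecum, 59.7 in the colon and 52.3 in the ileum. Of its 7 genes compared 1 was higher in caecum than in ileum, 1 lower in caecum than in colon, and 3 higher and 1 lower in colon than in ileum, with Upk1a at 452 counts in the colon and 103 in the ileum, while Upk2, Krt5 and Trp63 had at most 15 counts in any library. The notochord and floor plate list, where Foxa2 is known to be active, had Noto at 0 counts throughout and T at 24 counts in the caecum, 14 in the colon and 12 in the ileum. It summed to 18.4 RPKM in the caecum, 14.4 in the colon and 25.4 in the ileum. Most of this was Shh, at 13.8, 11.0 and 22.3 RPKM in the same order. Of the notochord genes 1, Shh, was lower in colon than in ileum among 3 compared, and 0 were apart in the other pairs. Shh is also the gene of the urothelium list that was lower in colon than in ileum, so the same Shh values are part of the urothelium sums. It is on the list of FOXA targets as well. The part of any such cells in the levels of the 8 genes was not tested.

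Other transcription factors of endoderm fell on both sides as well. Of 30 genes on this list, 5 were 2-fold or more higher and 3 lower in colon than in ileum, out of 27 compared, but 3 were higher and 4 lower with libraries scaled to the epithelium list. In the caecum 2 were higher and 3 lower than in the ileum, out of 26 compared, and 2 were higher and 3 lower than in the colon, out of 27. Of all genes compared, 4.59% were higher and 2.52% lower in caecum than in ileum. For caecum over colon these shares were 5.11% and 2.74%, and for colon over ileum 4.04% and 4.29%. Neither these list counts nor those of the target and progenitor lists below were tested against the shares. Medians of the endoderm list lay near no difference, at log2 folds of 0.05 for caecum over ileum, -0.15 for caecum over colon and -0.01 for colon over ileum. Gata5, a zinc finger factor, shared the ileum side with Hnf4g and Elf3, with 94 counts in the caecum, 56 in the colon and 598 in the ileum. It was 8.27-fold (6.65 to 10.4) lower in the caecum and 11.0-fold (8.35 to 14.7) lower in colon than in ileum. Isx, an intestine-specific homeobox factor, was 2.25-fold (2.09 to 2.41) lower in colon than in ileum. Gata4, a relative of Gata5, had 4 counts in the caecum, 58 in the colon and 702 in the ileum. Cdx1, a relative of Cdx2, was low in the caecum alone, with 34 counts there, 151 in the colon and 176 in the ileum.

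On the colon side stood Klf4, a relative of Klf5, along with Ehf, an ETS factor related to Elf3, Grhl1, a grainyhead factor of epithelia, Ovol2, a zinc finger factor of epithelia, and Sox21. Klf4 was 2.08-fold (1.86 to 2.32) higher in colon than in ileum. With scaling to the epithelium list it was 1.69-fold higher and Grhl1 1.82-fold, both then within the limit. Ehf was 2.54-fold (2.17 to 2.99) higher in the colon, the opposite side from Elf3. Spdef, an ETS factor of secretory cells, was 2.23-fold (1.54 to 3.28) higher in caecum than in ileum and 2.96-fold (1.98 to 4.55) above the colon, from 116 counts in the caecum, 31 in the colon and 40 in the ileum. Onecut2, a cut homeobox factor, was 2.45-fold (2.13 to 2.83) higher in caecum than in colon. Tcf7l2, a WNT effector, and Foxp1, a forkhead factor, had the highest counts, not corrected for gene length, of the genes within 2-fold in every pair, with 5186 and 7361 counts in the caecum, 4046 and 8382 in the colon and 3106 and 5500 in the ileum. Grhl2, a factor of epithelial junctions, had 1595 counts in the caecum, 1200 in the colon and 1172 in the ileum, and its fold for colon over ileum was 0.995 (0.917 to 1.08).

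Known target genes of HNF4, from intestine and liver, fell on both sides. Their medians had the directions of Hnf4g, which Foxa1 and Sox9 shared, and a link to any of these factors was not tested. Of 24 genes, 1 was 2-fold or more higher and 7 lower in colon than in ileum among 18 compared, and 3 were higher and 6 lower in caecum than in ileum among 19. In the caecum 6 were higher and 2 lower than in the colon among 17. The median log2 fold was -0.48 for caecum over ileum, 0.56 for caecum over colon and -0.53 for colon over ileum. Cdh17, a cadherin of intestinal epithelium, had 1535 counts in the caecum, 1148 in the colon and 2398 in the ileum. It was 2.03-fold (1.91 to 2.17) lower in the caecum and 2.15-fold (2.0 to 2.31) lower in colon than in ileum. Dpp4, a brush border peptidase, was 2.81-fold (2.66 to 2.96) lower in colon than in ileum. It had 3420 counts in the caecum, 1840 in the colon and 5017 in the ileum. In RPKM its order of segments was that of Hnf4g, Foxa1 and Sox9.

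Fabp2, a fatty acid binding protein, and the urea cycle genes Cps1 and Otc were lower in both other segments than in the ileum. Otc, the ornithine transcarbamylase gene, had 18 counts in the caecum, 9 in the colon and 164 in the ileum. It was 11.9-fold (7.27 to 20.5) lower in the caecum and 18.7-fold (9.64 to 41.7) lower in colon than in ileum. Apob and Muc13, an apolipoprotein and a membrane mucin, had 3062 and 1010 counts in the caecum, 38 and 16 in the colon and 3414 and 1518 in the ileum. They were 92.4-fold (67.2 to 131) and 97.6-fold (59.9 to 171) lower in colon than in ileum. Hnf4a had 3174 counts in the caecum, 4498 in the colon and 4042 in the ileum, and its part in these differences was not tested.

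In RPKM, Lgals4, a galectin of the gut epithelium, had the order of segments seen for Hnf4a and Klf5. Its counts were 1510 in the caecum, 6304 in the colon and 2593 in the ileum. It was 2.23-fold (2.10 to 2.38) lower in caecum than in ileum, 5.28-fold (4.99 to 5.59) lower in caecum than in colon and 2.36-fold (2.26 to 2.47) higher in colon than in ileum. The last value became 1.92-fold with scaling to the epithelium list, under which 0 targets were higher and 7 lower in colon than in ileum. Ambp, a plasma protein precursor, and Apoa1, an apolipoprotein, were highest in the caecum, by 4.94-fold (4.15 to 5.91) and 2.93-fold (2.46 to 3.50) over the ileum. Anpep, a peptidase of the brush border, and Vil1, the villin gene, stayed within 2-fold in every pair. Anpep had 8.36 RPKM in the caecum, 9.52 in the colon and 11.5 in the ileum.

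**Figure D4:**
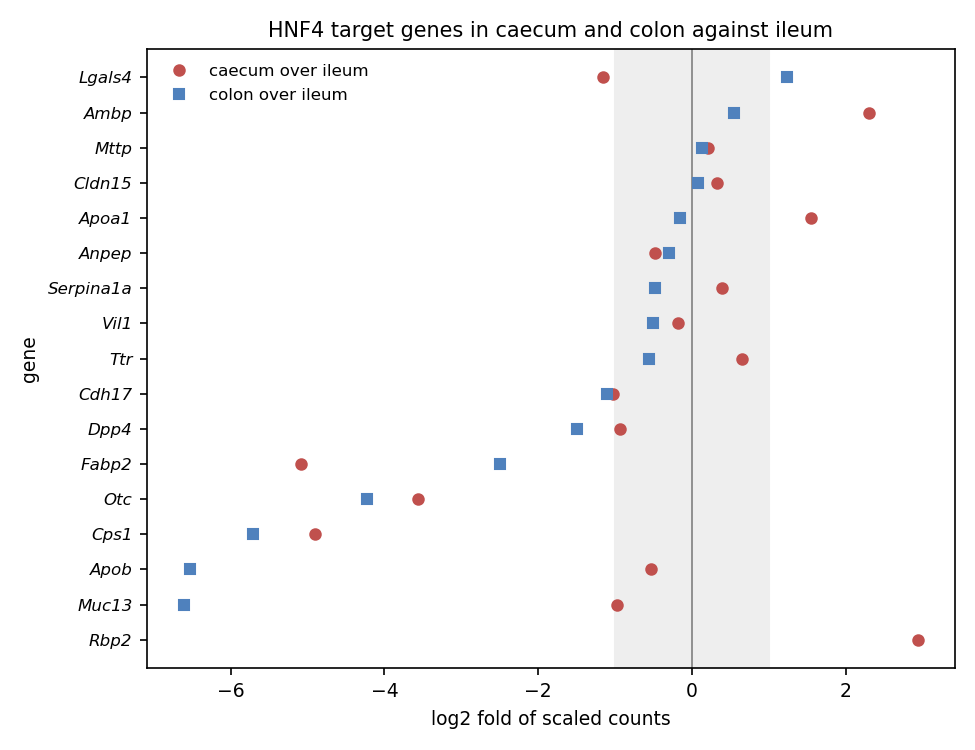
Log2 fold of scaled counts for HNF4 target genes that reached 20 counts in either library, caecum over ileum as circles and colon over ileum as squares, 1 sample per segment and no error bars. Grey spans the range within 2-fold, and Muc13 and Apob lie far to the left for colon over ileum only, while Rbp2, with 0 counts in the ileum, is placed against a floor of 3 counts.

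Target genes named for FOXA factors in liver, lung and gut were mostly sparse or fell on different sides. Of 12 genes, 4 were higher and 1 lower in colon than in ileum among 8 compared, 3 were higher in caecum than in ileum among 7 compared, and 3 were higher and 2 lower in caecum than in colon among 9. The median log2 fold was 0.65 for caecum over ileum, 0.05 for caecum over colon and 1.02 for colon over ileum. Clu, the clusterin gene, had 2325 counts in the caecum, 811 in the colon and 298 in the ileum, which put the caecum 6.0-fold (5.31 to 6.79) and the colon 2.64-fold (2.31 to 3.03) above the ileum. Afp, the alpha-fetoprotein gene, stood 5.58-fold (5.05 to 6.19) above the ileum in the caecum and 5.39-fold (4.86 to 5.98) above it in the colon. Agr2, a disulfide isomerase of secretory cells, had 10 counts in the caecum, 26 in the colon and 2 in the ileum, and Muc2, the goblet cell mucin, 34 in the caecum, 12 in the colon and 10 in the ileum. Shh, a ligand of the gut epithelium, was 2.05-fold (1.93 to 2.18) lower in colon than in ileum. Gcg and Pyy, hormone genes of endocrine cells, had at most 3 counts in any library.

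Among genes that go with SOX9 in intestinal progenitors, several were far apart between segments. Of 10 genes, 2 were higher and 2 lower in caecum than in ileum among 9 compared, 3 higher and 1 lower in caecum than in colon, and 1 higher and 2 lower in colon than in ileum. The R-spondin receptor gene Lgr5 had 133 counts in the caecum, 8 in the colon and 855 in the ileum. Ascl2, a stem cell factor, was 4.23-fold (2.82 to 6.5) lower in the caecum and 8.92-fold (4.89 to 17.8) lower in colon than in ileum. Olfm4, a secreted glycoprotein of adult crypts, was 31.8-fold (12.1 to 119) higher in colon than in ileum, from 131 counts in the colon and 4 in the ileum. Cd44, a hyaluronan receptor, was 3.43-fold (3.13 to 3.75) higher in caecum than in ileum. Axin2, a WNT target, had 6.15 RPKM in the caecum, 3.27 in the colon and 6.22 in the ileum. It lay just inside the limit, at 1.89-fold for caecum over colon and 0.517-fold for colon over ileum, and passed it with scaling to the epithelium list, at 2.02-fold and 0.421-fold.

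Genes most like Foxa2 and Hnf4g, the members with the widest spread, were sought by the distance between their log2 ratios over the 3 libraries, among 12523 named genes with at least 100 counts in a library. Nearest to Foxa2 were Atp13a4, Marveld3 and Rasl12, at distances of 0.096, 0.16 and 0.20 on the log2 scale, and 20 genes lay within 0.5 of it. Marveld3, a tight junction protein, had 102 counts in the caecum, 171 in the colon and 30 in the ileum. Nearest to Hnf4g were Tlr5, Dach2 and Loxl4, at distances of 0.053, 0.12 and 0.13, among 42 genes within 0.5. Tlr5, the receptor for flagellin, had 534 counts in the caecum, 288 in the colon and 1008 in the ileum. With 3 libraries such likeness is a description of these samples.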

How the data were processed

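Gene-level values of the E13.5 caecum, colon and ileum were used, with 1 sample each. The authors deposited expected counts, with fractions of 0.5 in places, and RPKM, scaled to gene length and depth, per the file headers. Bowtie 0.12.7, DESeq and mm9 appear in the submitters' processing notes, which assign them no role. How reads were counted, on which annotation and with what strand setting is not given in the sources used here. Both columns of a sample were averaged and rounded to whole counts, and libraries were scaled by TMM over all features (edgeR 4.0.16, R 4.3.3). Folds carry 95% intervals from the conditional binomial (Clopper-Pearson, exact), RPKM values exact Poisson intervals and ratios of ratios exact conditional intervals (SciPy 1.17.1), all for counting error only. Comparison of a gene needed 20 counts or more in its higher library. In folds, a library at 0 counts was set to a floor of 3 counts. Table starts count from 0, so 1 was added. The procedure was run on simulated counts with counting error alone, which hold no differences between embryos.

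All 8 members are described. From the lists, up to 4 genes per direction and pair were named by the bound nearest to no difference and up to 2 within 2-fold by their counts, and further genes, such as single markers, Grhl2, Vil1 and Axin2, were named after their values were seen. Some genes of these lists are counted but not reported here by name or drawn. The 15 lists hold 195 entries for 178 genes, all matched by symbol, so some genes, such as Shh, count in more than 1 list. Members and lists were chosen with earlier results of these data known, and lists of notochord and floor plate and of enteroendocrine genes were added after values were seen. Alternatives were DESeq2 size factors (DESeq2 1.42.0), total counts, RPKM ratios, scaling to the epithelium list, other count and fold limits, and each column alone.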

Additional observations from a re-analysis of the deposited data

How the results depend on the processing

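The folds of the 8 genes stayed within their counting intervals, with the same side of the 2-fold limit, under DESeq2 size factors, total counts, RPKM ratios and either column alone, for all 24 folds each. These are weak checks, since the TMM factors were 1.002 for the caecum, 1.006 for the colon and 0.992 for the ileum. The columns of a sample also differed by less than counting error. Scaling to the epithelium list, which shifts all genes by 0.30 on the log2 scale between colon and ileum and by 0.03 for caecum over ileum and -0.09 for caecum over colon, moved 7 of 24 folds beyond their intervals and changed 3 calls (Foxa2 and Foxa3 between caecum and colon, Elf3 between colon and ileum). It turned Hnf4a for colon over ileum to 0.880, against 1.08. In that pair Foxa1 became 0.504, Klf5 1.32 and Sox9 0.656, against 0.619, 1.62 and 0.807.

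With a limit of 1.5-fold, 4 genes in place of 1 were apart between caecum and colon, where 15.5% of all genes were, and 6 in place of 2 between colon and ileum, where 15.9% were. With intervals wholly beyond 2-fold, 0 were apart between caecum and colon, where 4.14% of all genes were. With a minimum of 100 counts, 3 in place of 5 endoderm factors, 2 in place of 5 FOXA targets and 0 in place of 1 epithelial gene were apart between caecum and colon, and 3 in place of 5 FOXA targets between colon and ileum, since fewer genes are then compared. Scaling to the epithelium list left 0 in place of 1 epithelial gene apart between colon and ileum. For colon over ileum it gave 3 higher and 4 lower endoderm factors in place of 5 and 3, 0 higher and 7 lower HNF4 targets in place of 1 and 7, and 1 higher and 3 lower SOX9-associated genes in place of 1 and 2. For caecum over colon it gave 3 in place of 2 higher endoderm factors and 4 in place of 3 higher SOX9-associated genes, and for caecum over ileum 7 in place of 6 lower HNF4 targets. The genes that crossed the limit were Cdx2, Klf4, Grhl1, Lgals4, Muc13, Axin2 and Krt19. The sum of Elf3 with Gm16606, an alternative chosen after seeing the data, left Elf3 on the same side of the limit in every pair. No paired analysis was possible because each segment has 1 sample. Differences between embryos were not measured, and Foxa2 in the ileum rests on 68 counts.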

Other observations

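Enteroendocrine genes were sparse. Of 12 genes, 3 were 2-fold or more higher and 1 lower in caecum than in colon among 5 compared, 1 was higher in caecum than in ileum among 4, and 1 was higher and 3 lower in colon than in ileum among 5. Sct, the secretin gene, had 132 counts in the caecum, 20 in the colon and 56 in the ileum, and Chgb, a granin of secretory granules, had 358 in the caecum, 86 in the colon and 228 in the ileum. Neurog3 and Neurod1, the factors of endocrine progenitors, had 0 counts in all 3 libraries, and granins are also made by neurons. Isl1, a LIM homeobox gene that neurons and mesenchyme also use, was the gene on the colon side, with 11 counts in the caecum, 390 in the colon and 19 in the ileum. Tff1, a trefoil factor from the stomach list, had 64 counts in the caecum, 96 in the colon and 25 in the ileum, while Gkn1 and Gkn2 had at most 6 counts in any library. The stomach list summed to 8.44 RPKM in the caecum, 8.84 in the colon and 9.52 in the ileum. Gata4, which is also on the list of endoderm factors, gave 0.018, 0.292 and 3.59 RPKM of these sums in the same order. Of 3 genes compared 1 was lower in caecum than in ileum, 1 lower in caecum than in colon, and 1 higher and 1 lower in colon than in ileum.

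Among lists of the gut wall, several smooth muscle genes were lower in caecum and in colon than in ileum. The smooth muscle list summed to 582 RPKM in the caecum, 782 in the colon and 1345 in the ileum, and 6 of its 10 genes were 2-fold or more lower in caecum than in ileum, 5 lower in colon than in ileum and 0 apart between caecum and colon. The mesenchyme list summed to 957 RPKM in the caecum, 921 in the colon and 929 in the ileum, and 3 of its 12 genes were higher in caecum than in ileum, 2 higher in caecum than in colon, and 2 higher and 1 lower in colon than in ileum. Lum, a proteoglycan of matrix, had 6122 counts in the caecum, 760 in the colon and 8862 in the ileum.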
